A study of Rattus norvegicus with 12 samples.

Results

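The mRNA probes described here were the most variable ones among the diabetic retinas of a rat microarray study. They were chosen by their spread: on log2 signal, quantile normalized over 12 arrays, a probe was taken if its standard deviation (SD) over the 4 Diab arrays was 2 or more, if its spot passed the scanner's background test (well above background) on at least 3 arrays and if no array had a missing value. The rule found 32 of 27556 mRNA probes that could meet it, a share of 0.116%, and the array held 28287 mRNA probes in all. Log2 signal is the logarithm of the spot brightness, so a difference of 1 is a 2-fold difference, and the median SD of all mRNA probes over the same 4 arrays was 0.22. Because the Diab values chose the probes, their levels on the Diab arrays are given as a description without a test. The choice leaned on single arrays: with Diab replicate 1 left out, 13 probes had an SD of 2 or more, of which 7 were among the 32 and 0 among the 24 that form the largest set below, and with Diab replicate 4 left out 58 had, of which 31 were. After normexp background correction with an offset of 50, which compresses differences between low signals, 10 of the 32 kept an SD of 2 or more, 5 of them among those 24.

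The 12 arrays came from male Wistar rats, with 4 rats and 4 arrays per group. The Diab rats were made diabetic with streptozotocin, which destroys the insulin-producing cells of the pancreas, and stayed in poor glycemic control for 8 months. The Rev (reversal) rats were made diabetic in the same way and had 4 months of poor control, then 4 months of good control under insulin. The Norm rats were nondiabetic rats of the same age.

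The retina is neural tissue in which photoreceptors, interneurons, ganglion cells, Müller glia, vessels and microglia lie close together. Long exposure to high glucose damages its small vessels and neurons, the condition called diabetic retinopathy. Damage can go on after glucose is brought down, which is known as metabolic memory and is the reason for a reversal group. In a whole-tissue extract, fewer or more cells of a type and less or more RNA per cell cannot be told apart.

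The files used here do not pair the mRNA probes with genes, and 0 of the 32 members were matched to a symbol, so they are named by their probe IDs, and no function or sequence can be given for them. Of the 50 catalogue probes, which carry 10 spots each, 30 were matched to a symbol. These included 0 of the markers listed for retinal cell types, lens, pigment epithelium, blood or muscle, so neither the tissue label nor the presence of other eye tissues could be checked by markers.

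Each group was scanned on its own, in 3 scans of 4 arrays, so the scan and the group cannot be told apart. The 4 Diab arrays shared 1 scan, and the spread that chose the members therefore lay within it. The median spot signal was 304 to 408 on the Diab arrays, 61.3 to 238 on the Norm arrays and 140 to 374 on the Rev arrays, and 91.2% to 98% of the mRNA probes were well above background. Rev replicate 3 stood apart, with a residual SD of 0.63 from its group mean over all mRNA probes against 0.24 to 0.38 on the other arrays. Some results that rest on it are also given without it, and the others include it. Before any normalization between arrays, all members had an SD over the Diab arrays of at least 2.11.

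Among the Diab arrays, 28 of the 32 members were lowest on replicate 1. They were highest on replicate 3 in 21 probes and on replicate 2 in 9. These counts use the values that chose the members and have no share over all mRNA probes beside them, so nothing is read from them. Most members followed 1 order, with Diab replicates 2 and 3 highest, then replicate 4, then replicate 1. This order was found in 24 members, 75% of them, against 12.8% of all mRNA probes (3532 of 27556). These 24 are called the shared-order probes below, a set defined after the values were seen.

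The 24 shared-order probes, from the largest spread down, were ASRN6AP1B100020591V3, ASRN6AP1B103558500V3, ASRN6AP1B100034015V3, ASRN6AP1B100035454V3, ASRN6AP1B100021682V3, ASRN6AP1B105217846V3, ASRN6AP1B106768873V3, ASRN6AP1B100000550V3, ASRN6AP1B100022481V3, ASRN6AP1B100006458V3, ASRN6AP1B101014078V3, ASRN6AP1B100058570V3, ASRN6AP1B100047898V3, ASRN6AP1B100011923V3, ASRN6AP1B103041830V3, ASRN6AP1B100016015V3, ASRN6AP1B100067213V3, ASRN6AP1B100023324V3, ASRN6AP1B100041191V3, ASRN6AP1B106290495V3, ASRN6AP1B100056814V3, ASRN6AP1B100062997V3, ASRN6AP1B100094007V3 and ASRN6AP1B100062639V3. Of the remaining 8, 3 had their highest value of all 12 arrays on Rev replicate 2, namely ASRN6AP1B100080985V3, ASRN6AP1B100049749V3 and ASRN6AP1B100073060V3. The last 5 followed neither course and were ASRN6AP1B105909135V3, ASRN6AP1B100024043V3, ASRN6AP1B103857219V3, ASRN6AP1B100041195V3 and ASRN6AP1B100030444V3.

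**Figure D1:**
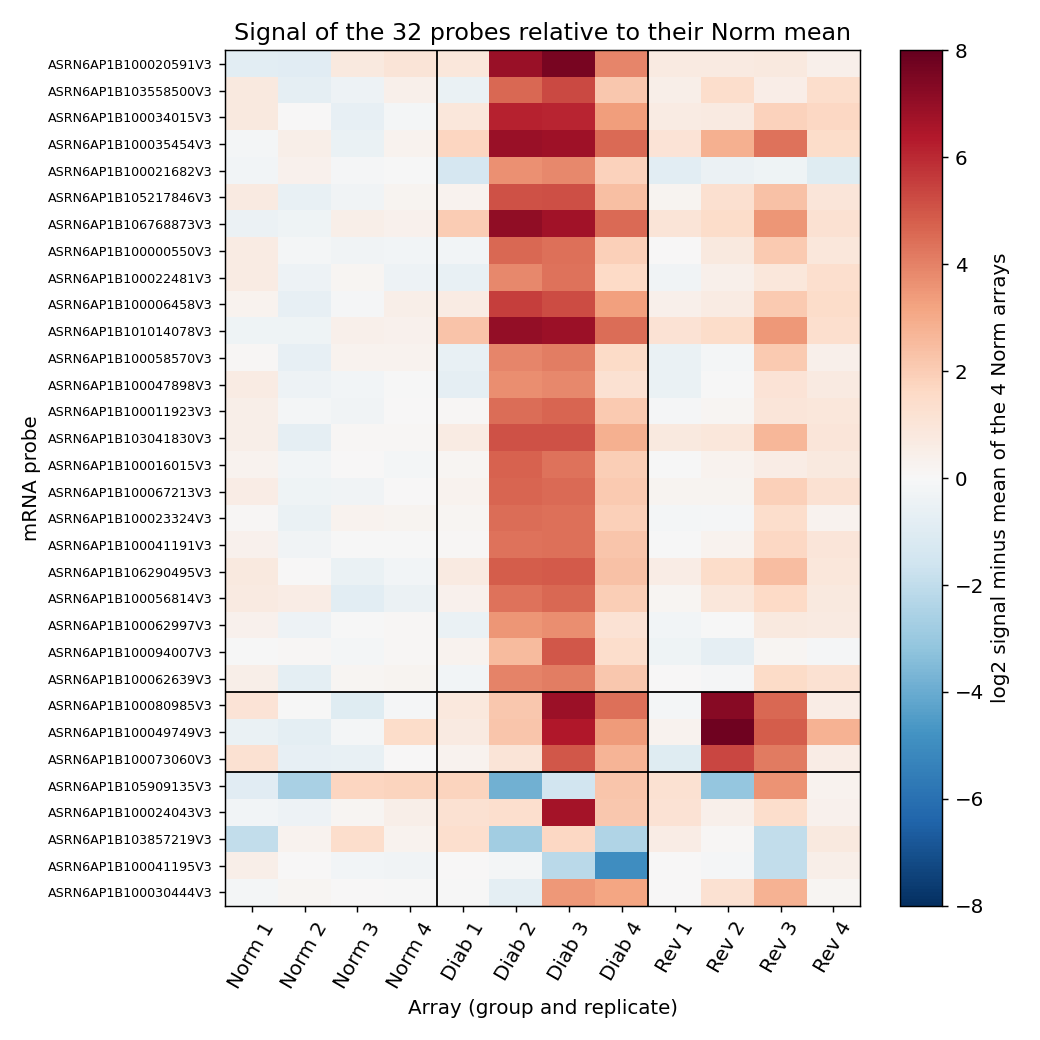
Log2 signal of the 32 members (rows) on the 12 arrays (columns), each probe relative to the mean of its 4 Norm arrays, red for higher and blue for lower. Lines separate the groups and the 3 sets of probes; the upper 24 rows are dark on Diab 2 and Diab 3, paler on Diab 4 and near the Norm mean on Diab 1, where their medians were 4.59, 4.62, 2.14 and 0.22.

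The shared-order probes were near the Norm level in 1 diabetic retina and far above it in 3. Relative to each probe's Norm mean, their median log2 signal was 0.22 on Diab replicate 1, 4.59 on replicate 2 (24-fold), 4.62 on replicate 3 (24.6-fold) and 2.14 on replicate 4 (4.41-fold). The Norm arrays ranged from -0.36 to 0.39 on the same measure, and the medians of all mRNA probes from -0.06 to 0.02 over the 12 arrays. All 24 probes were above every Norm and Rev array on both Diab replicate 2 and Diab replicate 3, and 21 were so on Diab replicate 4. On Diab replicate 1, in contrast, 13 lay within the range of the Norm arrays, 7 above it and 4 below it. These counts come from the values that chose the members and defined the set. No share over all mRNA probes is given for them, and nothing is read from them.

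As a group mean the 24 probes were 1.95 to 5.16 higher in Diab than in Norm, with a median of 2.82, while Diab replicate 3 exceeded Diab replicate 1 by 4.2 to 6.69. The 4 Diab arrays lay above the 4 Norm arrays without overlap in 8 members (8.78% of all mRNA probes) and above the 4 Rev arrays in 2 (0.588%). These counts use the values that chose the members, and nothing is read from them.

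**Figure D2:**
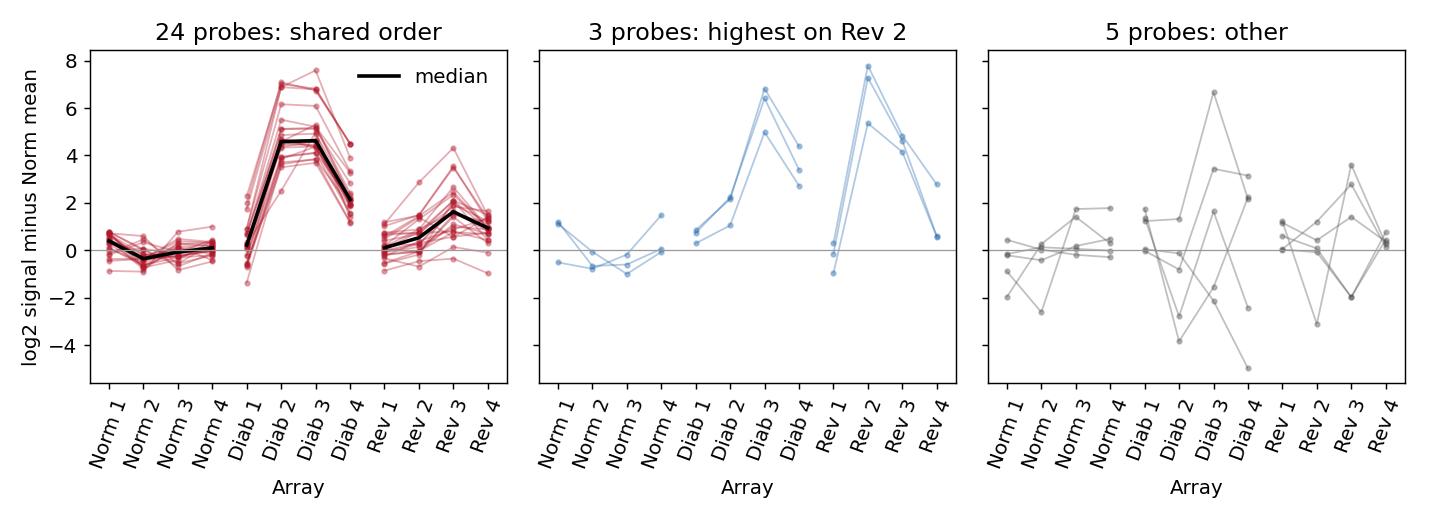
Log2 signal minus the Norm mean (vertical axis) on each of the 12 arrays (horizontal axis) for the 24 shared-order probes, the 3 probes highest on Rev 2 and the 5 others; each line is 1 probe, joined within a group only, and the thick black line is the median of the 24. The 24 lines keep 1 shape over the Diab arrays, the 3 lines have a further peak on Rev 2, and the 5 lines differ from each other.

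The member with the largest spread was ASRN6AP1B100020591V3, with an SD of 3.06 over the Diab arrays. It read 0.62, 0.59, 2.27 and 2.49 on Norm replicates 1 to 4, 2.40, 8.37, 9.08 and 5.40 on the Diab replicates and 2.20, 2.23, 2.28 and 1.92 on the Rev replicates. Its Diab arrays spanned 6.69 log2 units, a 103-fold range, and only 3 of them were well above background. No Norm or Rev array was well above background for this probe. On each Norm array the higher of the probe's own value and the lowest signal that passed the background test there was taken. The Diab mean was then 17.9-fold higher than that of Norm. This is not a strict lower limit, because the Diab array that failed the test entered at its own value.

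A course of the same kind was seen in ASRN6AP1B103558500V3 and ASRN6AP1B100034015V3. ASRN6AP1B103558500V3 had log2 values of 6.05, 4.56, 4.88 and 5.68 in Norm, 4.74, 9.87, 10.59 and 7.46 in Diab and 5.77, 6.68, 5.85 and 6.69 in Rev, each in the order of replicates 1 to 4. ASRN6AP1B100034015V3 gave 7.75, 7.01, 6.29 and 6.84 for the 4 Norm arrays, 7.88, 13.13, 13.06 and 10.30 for the 4 Diab arrays and 7.62, 7.69, 8.82 and 8.62 for the 4 Rev arrays. In the first, Diab replicate 1 lay inside the Norm range, and in the second it lay just above it. In both, the other Diab arrays exceeded every Norm and Rev array.

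Diab replicate 1 was itself well above the Norm arrays in ASRN6AP1B100035454V3 and ASRN6AP1B106768873V3. ASRN6AP1B100035454V3 read 3.66, 4.28, 3.26 and 4.06 on Norm replicates 1 to 4, 5.55, 10.69, 10.60 and 8.31 on the Diab replicates and 4.92, 6.67, 8.13 and 5.28 on the Rev replicates. ASRN6AP1B106768873V3 had log2 values of 5.64, 5.73, 6.57 and 6.44 in Norm, 8.10, 13.18, 12.83 and 10.59 in Diab and 7.11, 7.58, 9.63 and 7.32 in Rev, each in the order of replicates 1 to 4. All 4 Rev arrays of both probes were also above all 4 Norm arrays. ASRN6AP1B105217846V3 gave 4.85, 3.51, 3.83 and 4.32 for the 4 Norm arrays, 4.40, 9.25, 9.30 and 6.56 for the 4 Diab arrays and 4.32, 5.44, 6.47 and 5.11 for the 4 Rev arrays. In the latter, Diab replicate 1 and Rev replicate 1 lay inside the Norm range, and the other Diab arrays were above every Norm and Rev array.

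ASRN6AP1B100021682V3 was the other member that no Rev array showed well above background. It read 1.80, 2.34, 1.93 and 1.94 on Norm replicates 1 to 4, 0.64, 5.63, 5.85 and 3.86 on the Diab replicates and 1.14, 1.54, 1.65 and 1.03 on the Rev replicates. Its lowest value of all 12 arrays was on Diab replicate 1. The background test was passed on 3 Diab arrays and on no Norm array. Taken in the same way, Diab was 3.34-fold over Norm, again with the failed Diab array at its own value. All 4 Rev arrays were below all 4 Norm arrays, but neither group was measured above background.

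Diab replicates 2 and 3 were close to each other in most of the 24 probes. Their log2 values lay within 0.5 of each other in 20 of 24, with a median difference of -0.06 (replicate 2 minus replicate 3). The lowest difference, -2.47, belonged to ASRN6AP1B100094007V3. This probe had log2 values of 4.23, 4.32, 4.08 and 4.37 in Norm, 4.51, 6.76, 9.23 and 5.64 in Diab and 3.91, 3.56, 4.39 and 4.15 in Rev, each in the order of replicates 1 to 4. It was the shared-order probe with the smallest SD over the Norm arrays (0.13), and Rev replicates 1 and 2 lay below the Norm range.

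On the linear scale the excess signal on the Diab arrays kept similar proportions in most of the 24 probes. With the excess of a probe over its Norm mean on Diab replicate 3 set to 100%, the median excess on Diab replicate 2 was 95.8%, with quartiles of 86.5% and 107% and a range of 15.4% to 130%. It was 13.4% on Diab replicate 4 (quartiles 11.4% and 18.3%, range 5.29% to 24.2%) and 0.434% on Diab replicate 1 (range -4.66% to 3.44%). The order of the Diab arrays in these percentages was fixed by the definition of the set, so only their sizes are described. Diab replicate 1 lay around 0. The Rev arrays were at a median of -0.0448%, 1.05%, 8.73% and 2.97% for replicates 1 to 4. Rev replicate 3 was the highest of these, with quartiles of 3.95% and 11.7% and a range from -1.69% to 20%.

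**Figure D3:**
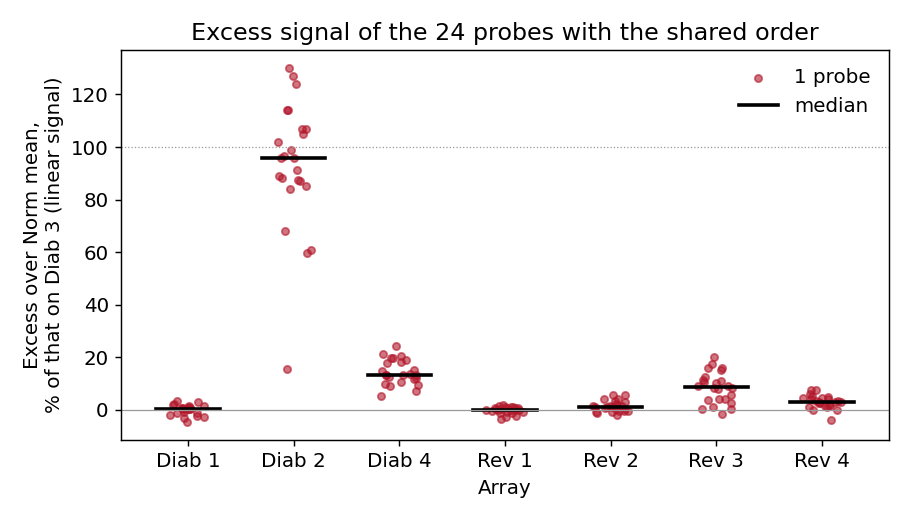
Excess of linear, quantile normalized signal over the Norm mean, as a percentage of the excess on Diab 3 (vertical axis), for the 24 shared-order probes on the other Diab arrays and the Rev arrays; each point is 1 probe and the black bar is the median. The medians were 95.8% on Diab 2, 13.4% on Diab 4, 8.73% on Rev 3 and no more than 2.97% on the remaining arrays. The order of the Diab arrays was fixed by the definition of the set.

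The pairwise Pearson correlation of the 24 probes over the 12 arrays had a mean of 0.94 and a lowest value of 0.78, and 79.7% of the 276 pairs were above 0.9. Over all mRNA probes the mean was 0. These points share the 3 high Diab arrays that chose the probes. Over the 8 Norm and Rev arrays, which the rule did not use, and with each group centred on its mean, the mean was 0.54, and 0.33 without Rev replicate 3, where all mRNA probes again gave 0. It was 0.25 over the 4 Norm arrays alone and 0.64 over the 4 Rev arrays alone.

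The members were more variable than most probes in the other groups too. Over the 4 Norm arrays their SD had a median of 0.47 (quartiles 0.37 and 0.62) against 0.24 for all mRNA probes, and over the 4 Rev arrays 0.81 (quartiles 0.58 and 1.17) against 0.37. Without Rev replicate 3 the Rev medians were 0.5 and 0.17. After normexp background correction the Norm medians were 0.23 and 0.17 and the Rev medians 0.63 and 0.26. The members' spots were dim in Norm, with a mean signal at a median percentile of 27.9 among mRNA probes, and the part of this in their spread was not tested. In each group 28 of 32 members were above the median of all mRNA probes. An SD of 1 or more was reached by 4 members over Norm (1.62% of all mRNA probes) and by 11 over Rev (2.45%). Among the 4 was ASRN6AP1B100020591V3 (1.03), which no Norm or Rev array showed well above background, so its spread there is not a measured one. It and ASRN6AP1B100021682V3, likewise undetected there, are included in the medians, counts and correlations over the Norm and Rev arrays. An SD of 2 or more was rare, with 1 member of 8 such mRNA probes in Norm and 4 of 19 in Rev, and none of these were shared-order probes. Those 4 members were ASRN6AP1B105909135V3, which reached it in both groups, and the 3 probes highest on Rev replicate 2.

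**Figure D4:**
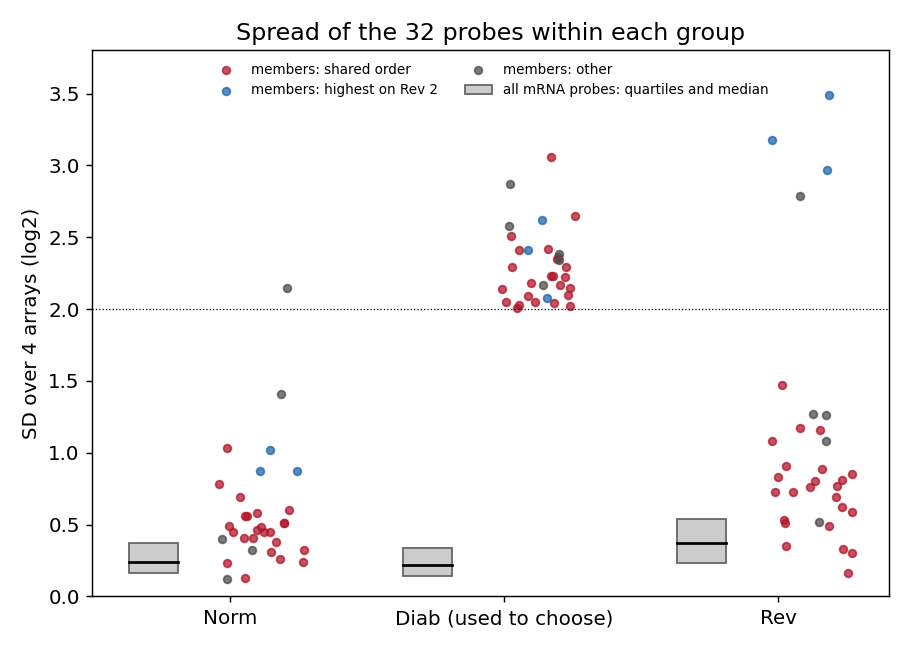
SD over the 4 arrays of each group (vertical axis, log2) for the 32 members (points, coloured by set) and for all mRNA probes (grey bars from lower to upper quartile, black line at the median). The dotted line is the minimum of 2 that chose the members on the Diab arrays; the points lie mostly above the grey bars in Norm and Rev as well, with medians of 0.47 and 0.81 against 0.24 and 0.37.

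Within the Rev group the shared-order probes had a common order as well. Rev replicate 3 was the highest Rev array in 21 of the 24, and in 24 of all 32 members, against 41.9% of all mRNA probes. Rev replicate 1 was the lowest in 20 of the 24, and likewise in 24 of all 32, against 14.7%. Relative to the Norm mean the median of the 24 was 0.10, 0.53, 1.62 and 0.94 on Rev replicates 1 to 4. The medians of all mRNA probes there were 0, -0.02, 0.01 and -0.01. The number of the 24 above every Norm array was 4, 10, 21 and 21. No share over all mRNA probes is given for these counts, so nothing is read from them.

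Rev against Norm is the comparison that does not use the values that chose the members, and it asks how far the level after a return to good control differs from that of rats without diabetes. No member differed at an adjusted p under 0.05 (limma on the 8 Norm and Rev arrays with Benjamini-Hochberg adjustment over 27662 mRNA probes), where 0% of all mRNA probes did. The smallest adjusted p of a member was 0.23. At an unadjusted p under 0.05, 14 of 32 members passed, 13 of them higher in Rev, against 10.4% and 6.03% of all mRNA probes. The lower one, ASRN6AP1B100021682V3, and ASRN6AP1B100020591V3, which did not pass, were 2 members that entered the fit only through the Diab arrays, since no Norm or Rev array showed them well above background, and their difference between Rev and Norm is not a measured one. The thresholds of the study, 2-fold or more with an unadjusted p under 0.05, were applied here to the limma fit. The study's own processing and counts are not repeated. This criterion was met by 9 members, all higher in Rev, against 1.05% of all mRNA probes (290 of 27662). Lower in Rev by this criterion were 0 members and 0.181% of all mRNA probes, which makes 1.23% in either direction. The count of 9 was 6 without Rev replicate 3, 16 without Rev replicate 1, 18 under scaling to the 75th percentile and 3 after normexp background correction. With the Diab arrays in the same fit it was 2. There the Diab spread that chose the members enters the error, so nothing is read from this drop.

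In direction, the Rev mean was above the Norm mean in 28 of 32 members and in 22 of the 24 shared-order probes, against 45.5% of all mRNA probes. The 24 probes moved together over the 4 Rev arrays (mean correlation 0.64), so these counts are not made of independent observations. They include Rev replicate 3 and the 2 members that no Norm or Rev array showed well above background. The difference had a median of 0.85 over the members and 0.78 over the 24, ranging from -0.66 to 3.92, where all mRNA probes had a median of -0.03. All 4 Rev arrays lay above all 4 Norm arrays in 4 members (4.47% of all mRNA probes), which were ASRN6AP1B100035454V3, ASRN6AP1B106768873V3, ASRN6AP1B101014078V3 and ASRN6AP1B103041830V3. They lay below without overlap in 1 member (3.25%), ASRN6AP1B100021682V3, for which no Norm or Rev array was well above background, so that no direction is read from it.

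The member with the smallest p of those given array by array above was ASRN6AP1B100035454V3, with a log2 difference of 2.44 between Rev and Norm (standard error 0.61, limma adjusted p = 0.23). Only 2 Norm arrays showed it well above background. Under scaling to the 75th percentile, which moved the median of all mRNA probes from -0.03 to 0.08, its difference was 2.89 with an adjusted p of 0.0489, and it was then the only member to pass. ASRN6AP1B101014078V3, singled out after its values were seen, had the same adjusted p of 0.23 with a difference of 1.88 (standard error 0.47). It gave 6.36, 6.38, 7.11 and 7.05 for the 4 Norm arrays, 9.02, 13.74, 13.55 and 11.22 for the 4 Diab arrays and 7.91, 8.20, 10.22 and 8.09 for the 4 Rev arrays. Its Rev values were between the Norm and the higher Diab values, and its Diab replicate 1 overlapped the Rev range.

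**Figure D5:**
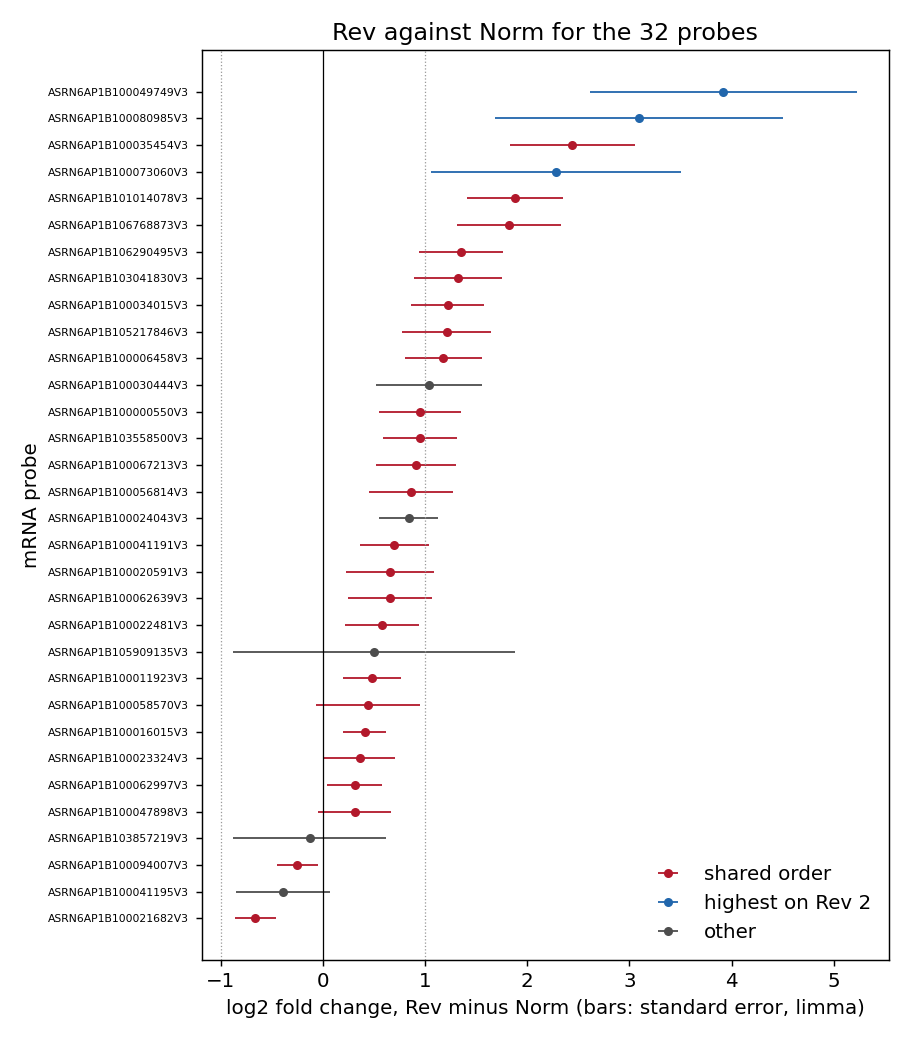
Log2 fold change of Rev against Norm (horizontal axis) for the 32 members, ordered by size and coloured by set, with bars of 1 standard error from limma on 4 arrays per group; dotted lines mark a 2-fold difference either way. Of the 32 points, 28 lie to the right of 0, and the 3 probes highest on Rev 2 have the widest bars along with ASRN6AP1B105909135V3.

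The 3 probes highest on Rev replicate 2 varied in the reversal group as well as in the diabetic group, which is partly fixed by how they were chosen. ASRN6AP1B100080985V3 read 9.29, 8.11, 7.17 and 8.10 on Norm replicates 1 to 4, 9.02, 10.33, 14.99 and 12.56 on the Diab replicates and 8.02, 15.45, 12.79 and 8.77 on the Rev replicates. ASRN6AP1B100049749V3 had log2 values of 7.28, 7.01, 7.61 and 9.27 in Norm, 8.52, 10.02, 14.20 and 11.19 in Diab and 8.08, 15.58, 12.63 and 10.57 in Rev, each in the order of replicates 1 to 4. ASRN6AP1B100073060V3 gave 10.90, 9.03, 9.09 and 9.75 for the 4 Norm arrays, 9.98, 10.74, 14.67 and 12.42 for the 4 Diab arrays and 8.72, 15.05, 13.84 and 10.27 for the 4 Rev arrays. High values were found on Diab replicates 3 and 4 and on Rev replicates 2 and 3, each above every Norm array, while Diab replicate 1 lay within the Norm range in all 3 probes. Their SD was 2.97 to 3.49 over the Rev arrays, 2.08 to 2.62 over the Diab arrays and 0.87 to 1.02 over the Norm arrays. The Diab values chose the members and Rev replicate 2 defined this set, so the first 2 ranges are given as a description.

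Over the 12 arrays the lowest correlation between any pair of these 3 probes was 0.93. Rev replicate 2 defined this set, so a correlation that includes it is partly fixed by the choice. Over the Norm and Rev arrays centred by group the mean was 0.82 without Rev replicate 2, a setting chosen after seeing the data, and over the 4 Norm arrays alone it was 0.25. Their correlation with the mean of the shared-order probes was 0.51 to 0.58. The difference between Rev and Norm was 3.09 (standard error 1.41) for ASRN6AP1B100080985V3, 3.92 (1.31) for ASRN6AP1B100049749V3 and 2.28 (1.22) for ASRN6AP1B100073060V3, with limma adjusted p of 0.488, 0.355 and 0.554. Outside the members 5 mRNA probes had a correlation above 0.9 with their mean, over 12 arrays that share the same high values.

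Of the 5 remaining members, ASRN6AP1B105909135V3 had the largest SD of all members over the Norm arrays (2.15). It read 7.35, 5.63, 9.98 and 10.02 on Norm replicates 1 to 4, 9.99, 4.40, 6.68 and 10.47 on the Diab replicates and 9.46, 5.13, 11.85 and 8.51 on the Rev replicates. Values under 7 were found in every group, on Norm replicate 2, Diab replicates 2 and 3 and Rev replicate 2, and the groups overlapped throughout. The difference between Rev and Norm was 0.50 (standard error 1.38, limma adjusted p = 0.928) and turned to -0.38 without Norm replicate 2 and to -0.54 without Rev replicate 3. Its course was repeated by a further mRNA probe, ASRN6AP1B100000717V3, with a correlation of 0.994 over the 12 arrays, and by the LncRNA probe ASRNV20029687V3, with one of 0.99.

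ASRN6AP1B103857219V3 also varied in every group. It had log2 values of 7.67, 9.90, 11.05 and 9.93 in Norm, 11.01, 6.85, 11.28 and 7.22 in Diab and 10.24, 9.72, 7.66 and 10.40 in Rev, each in the order of replicates 1 to 4. Diab replicates 2 and 4, Rev replicate 3 and Norm replicate 1 were low, and the remaining arrays lay between 9.72 and 11.28. The difference between Rev and Norm was -0.13 (standard error 0.75, limma adjusted p = 0.968) and turned to 0.34 without Norm replicate 3 and to 0.49 without Rev replicate 3. The most similar probe was ASRN6AP1B104659808V3, with a correlation of 0.963.

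ASRN6AP1B100024043V3 was high on 1 array, Diab replicate 3. It gave 2.69, 2.48, 3.08 and 3.38 for the 4 Norm arrays, 4.13, 4.22, 9.57 and 5.07 for the 4 Diab arrays and 4.06, 3.32, 4.31 and 3.27 for the 4 Rev arrays. No Norm array was well above background, although each Norm value was above the lowest signal that passed the test on its array. The fitted difference was 0.84 (standard error 0.29, limma adjusted p = 0.376), which is 1.79-fold higher in Rev. It was 0.05 after normexp background correction, so no lower limit is given for the fold. ASRN6AP1B100030444V3 had the smallest SD of all members over the Norm arrays, 0.12. It read 8.29, 8.58, 8.51 and 8.44 on Norm replicates 1 to 4, 8.43, 7.64, 11.89 and 11.60 on the Diab replicates and 8.50, 9.66, 11.23 and 8.60 on the Rev replicates. It was high on Diab replicates 3 and 4 and on Rev replicate 3, and its difference between Rev and Norm was 1.04 (standard error 0.52, limma adjusted p = 0.525).

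ASRN6AP1B100041195V3 was low on part of the Diab arrays and close to the Norm level on the rest. It had log2 values of 8.58, 8.17, 7.95 and 7.85 in Norm, 8.19, 8.01, 6.01 and 3.16 in Diab and 8.17, 8.06, 6.17 and 8.59 in Rev, each in the order of replicates 1 to 4. Diab replicate 4 was lowest, followed by Diab replicate 3 and Rev replicate 3, and the other arrays lay between 7.85 and 8.59. The difference between Rev and Norm was -0.39 (standard error 0.46, limma adjusted p = 0.801). The probe ASRN6AP1B100066205V3 had the most similar course, with a correlation of 0.973 over the 12 arrays.

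The minimum of 2 fell within a continuous series of values. Just inside it were ASRN6AP1B100062997V3 (2.028), ASRN6AP1B100094007V3 (2.019) and ASRN6AP1B100062639V3 (2.006). ASRN6AP1B100062997V3 gave 5.84, 5.08, 5.47 and 5.59 for the 4 Norm arrays, 4.94, 9.00, 9.19 and 6.67 for the 4 Diab arrays and 5.30, 5.47, 6.26 and 6.19 for the 4 Rev arrays. ASRN6AP1B100062639V3 read 10.12, 8.85, 9.82 and 9.87 on Norm replicates 1 to 4, 9.47, 13.61, 13.78 and 11.84 on the Diab replicates and 9.72, 9.57, 11.16 and 10.86 on the Rev replicates. In both, Diab replicate 1 was below the median Norm array and the other Diab arrays were above the whole Norm range.

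Just outside were ASRN6AP1B100076738V3 (1.992), ASRN6AP1B100016021V3 (1.971) and ASRN6AP1B100017259V3 (1.964), which had the same order of Diab arrays. ASRN6AP1B100076738V3 had log2 values of 6.83, 4.88, 5.53 and 6.02 in Norm, 6.28, 9.42, 11.07 and 8.66 in Diab and 5.97, 7.96, 9.27 and 6.50 in Rev, each in the order of replicates 1 to 4. ASRN6AP1B100016021V3 gave 10.91, 10.31, 10.61 and 10.72 for the 4 Norm arrays, 10.44, 14.81, 14.36 and 12.85 for the 4 Diab arrays and 11.24, 11.37, 12.05 and 11.68 for the 4 Rev arrays. ASRN6AP1B100017259V3 read 10.68, 9.96, 10.16 and 10.75 on Norm replicates 1 to 4, 10.01, 14.27, 14.02 and 12.35 on the Diab replicates and 10.34, 10.75, 12.07 and 11.42 on the Rev replicates. The values of these 3 probes followed the course of the shared-order probes just inside the minimum. Of the 77 mRNA probes with an SD from 1.5 to under 2, 44 (57.1%) had the shared order, and of the 276 from 1 to under 1.5, 64 (23.2%) had it.

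Other probes resembled the members without reaching the minimum. Of 27523 other mRNA probes, 100 (0.363%) had a correlation above 0.9 with the mean of the shared-order probes and 0 one below -0.9, with a median SD over the Diab arrays of 1.21. The 5 non-member mRNA probes most like the mean of all members were ASRN6AP1B100589102V3 (0.99), ASRN6AP1B105160069V3 and ASRN6AP1B105955773V3 (0.98), and ASRN6AP1B101251715V3 and ASRN6AP1B100073960V3 (0.97). ASRN6AP1B100589102V3 had log2 values of 5.41, 4.79, 5.64 and 5.17 in Norm, 5.65, 8.68, 8.98 and 7.09 in Diab and 5.53, 6.19, 6.70 and 6.07 in Rev, each in the order of replicates 1 to 4. The order of its Diab arrays was that of the shared-order probes, at a smaller span. All these correlations are over 12 arrays and share the same 3 high Diab arrays.

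In the LncRNA class, long noncoding RNAs measured on the same arrays, 5 of 9586 probes (0.0522%) had an SD of 2 or more over the Diab arrays. Of these, ASRNV20030472V3 and ASRNV20030698V3 had the shared order, with a correlation of 0.98 each with the mean of the members. ASRNV20030472V3 gave 5.82, 4.20, 5.12 and 4.89 for the 4 Norm arrays, 5.43, 10.26, 10.20 and 7.93 for the 4 Diab arrays and 5.50, 5.98, 7.74 and 5.91 for the 4 Rev arrays. ASRNV20030698V3 read 4.52, 3.47, 3.51 and 3.12 on Norm replicates 1 to 4, 4.08, 8.27, 8.39 and 5.96 on the Diab replicates and 3.99, 4.97, 5.81 and 4.67 on the Rev replicates. These LncRNA values overlapped between Diab replicate 1 and the Norm arrays as in the mRNA members. The next most similar LncRNA probes were ASRNV20035308V3 (0.94), ASRN6LNC1A100002801V3 (0.93) and ASRNV20029084V3 (0.91). The other 3 variable LncRNA probes did not have the shared order.

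None of the 50 catalogue probes reached an SD of 2. The most similar to the mean of the members was that for Fgf2, a fibroblast growth factor that retinal cells make after injury, with a correlation of 0.58 and an SD over the Diab arrays of 1.36. Fgf2 had log2 values of 9.52, 9.28, 9.38 and 9.89 in Norm, 8.93, 9.05, 11.82 and 10.44 in Diab and 10.11, 9.41, 10.00 and 8.89 in Rev, each in the order of replicates 1 to 4. It was highest on Diab replicate 3 and next on Diab replicate 4, unlike the shared-order probes, which were also high on Diab replicate 2. Its spots within an array had an SD of 0.03 to 0.07, which covers neither labelling nor hybridization nor the difference between rats. The members with the most similar course were ASRN6AP1B100024043V3 (0.85) and ASRN6AP1B100030444V3 (0.78). The next catalogue probes were A_44_P913360, without a symbol (0.55), and that for Map2, a protein of neuronal dendrites (0.54).

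The members lay scattered on the array, in rows 5 to 522 of 532 and columns 9 to 84 of 85. Only 1 pair lay within 2 rows and 2 columns of each other, ASRN6AP1B100080985V3 and ASRN6AP1B100022481V3, and they belong to different sets. The 440 other mRNA probes within 2 rows and columns of a member had a median SD over the Diab arrays of 0.22 and a highest of 1.22. No spot outside the controls was saturated. Of the members, 23 were well above background on all 12 arrays, 6 missed this on 2 Norm arrays and 3 on all Norm arrays, and 2 of these 3 also on all Rev arrays.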

How the data were processed

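Retinal RNA of 12 rats was labelled with Cy3 and hybridized to 1-colour Arraystar LncRNA/mRNA arrays. The authors scanned the arrays and deposited the output of Agilent Feature Extraction 11.0.1.1. The processed signal intensity used here is background-subtracted per the file headers and not normalized between arrays.

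From it, control spots were removed, and 2055 spots flagged as outliers were left out. Log2 signal was averaged per probe, and 38804 probes were quantile normalized. Quantile normalization is the step shared with the study's methods. Members and lists were chosen with earlier results of these data known. The members are the probes with an SD of 2 or more over the Diab arrays, and array-by-array values are given for the 12 most variable, for the extremes of the SD in Norm and Rev, and for the 3 probes on either side of the minimum. Other probes given in full were chosen after their values were seen.

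Rev was compared with Norm by limma 3.58.1 (R 4.3.3) on 8 arrays, over mRNA probes well above background on 3 or more arrays, with Benjamini-Hochberg adjustment. The Diab arrays stayed out of this fit. On simulated data for this comparison with 27662 probes, 86.5% of 200 changed probes were recovered, and 3.35% of the calls were false. The raised probes had a mean log2 difference of 1.99 there, against a median of 0.85 over the members. The simulated probes varied independently of each other, and recovery of smaller differences was not tested. A group of 4 arrays limits the precision. The labels give 4 rats per group, so the p-values reflect the spread between rats. Alternatives were another scaling, background correction, filters, fits and leaving out each array.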

Additional observations from a re-analysis of the deposited data

How the results depend on the processing

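The rule found 10 probes after normexp background correction, 109 with a minimum SD of 1.5 and 6 with one of 2.5. Leaving out each Diab replicate in turn gave 13 to 58 probes, 13 without replicate 1 and 58 without replicate 4. Without normalization between arrays, an alternative chosen after seeing the data, it found 46, including all 32. For Rev against Norm, the number of members with an adjusted p under 0.05 was 1 under scaling to the 75th percentile (adjusted p of 0.0489) and 0 under every other setting and with each array left out. The number past 2-fold with an unadjusted p under 0.05, 9 in the report, was 18 under that scaling and 3 after normexp. With each Norm or Rev array left out it was 6 to 16, lowest without Rev replicate 3 and highest without Rev replicate 1. With all 3 groups in 1 fit it was 2, but the Diab spread that chose the members then enters the error, so nothing is read from it. Of 298 fold changes of the 16 named members under other settings, 292 kept direction and side of the threshold, an adjusted p of 0.05. Size was not part of this count. After normexp, ASRN6AP1B100035454V3 went from 2.44 to 0.99 and ASRN6AP1B100024043V3 from 0.84 to 0.05. Under the 75th percentile scaling, ASRN6AP1B103558500V3 went from 0.95 to 1.33. The fold changes that turned were ASRN6AP1B105909135V3, to -0.38 without Norm replicate 2 and -0.54 without Rev replicate 3, ASRN6AP1B103857219V3, to 0.34 without Norm replicate 3 and 0.49 without Rev replicate 3, and ASRN6AP1B100094007V3, to 0.25 under the 75th percentile scaling, and 1 passed the threshold. With each array left out, the first of these ranged from -0.54 to 1.70 and the second from -0.78 to 0.49. The median SD of the members over Norm was 0.23 after normexp and 0.40 to 0.51 with each Norm array left out, and over Rev 0.50 to 0.92 with each Rev array left out. The causes were not tested. Low signals limit the 9 members that missed the background test on at least 2 Norm arrays.

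Replicate numbers are shared by the groups, but same-numbered Norm and Rev arrays did not all deviate together (correlations of 0.09, 0.28, 0.53 and -0.19), and 4 of 8 arrays correlated best with their own number. With the replicate number as a block, 11 members were past the 2-fold criterion and 0 had an adjusted p under 0.05.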
